A study of Mus musculus with 200 samples.

Results

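The *Dlk1*-*Meg3* imprinted cluster is a stretch of distal mouse chromosome 12 whose genes are transcribed from only one parental chromosome. It is represented here by 6 of the 22033 genes with a row in the deposited tables, chosen by name: the protein-coding genes *Dlk1*, *Rtl1* and *Dio3*, and the long noncoding RNA genes *Meg3*, *Rian* and *Mirg*. Levels were measured in whole E11.5 embryos with 3SEQ, which sequences the 3′ ends of poly(A) RNA, and a level is given in RPM, the gene's reads per 1000000 counted reads of the embryo. The F1 embryos came from C57BL/6J (B6) and CastEi/J (Cast, written CAST/EiJ in the study's methods) parents, mother listed first: 8 embryos of 2 litters from B6 × Cast and 8 of 2 litters from Cast × B6. The N2 embryos came from backcrosses to B6: 89 embryos of 17 litters from B6 mothers and F1 fathers, and 65 of 12 litters from F1 mothers and B6 fathers. All the F1 parents had a B6 mother and a Cast father, so an N2 embryo is either B6/B6 or B6/Cast (heterozygous) at an autosomal gene, and the Cast allele came from its father where the mother was B6 and from its mother where the mother was F1. No embryo was treated and none carried an engineered allele. Embryos, not cultures or dissected tissues, are the replicates, and those of a litter share a mother.

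In this cluster the coding genes are known to be expressed from the paternal chromosome and the noncoding RNAs from the maternal one, under the control of a differentially methylated region between *Dlk1* and *Meg3*. *Dlk1* encodes a transmembrane relative of the Notch ligands, *Rtl1* a retrotransposon-derived protein of placenta and muscle, and *Dio3* the deiodinase that inactivates thyroid hormone. *Meg3*, *Rian* and *Mirg* are host transcripts of small nucleolar RNAs and many miRNAs, all read in the same direction.

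On mm9, the build of the files, the genes lie on chromosome 12 from *Dlk1* (chr12:110691033-110701546, plus strand) through *Meg3* (chr12:110779211-110809936, plus), *Rtl1* (chr12:110827404-110838540, minus), *Rian* (chr12:110842155-110899919, plus) and *Mirg* (chr12:110973191-110987665, plus) to *Dio3* (chr12:111517278-111519307, plus). From the start of *Dlk1* to the end of *Dio3* the cluster covers 828 kb, and 77.7 kb separate *Dlk1* from *Meg3*. Of 58 miRNA hairpins in RefSeq that matched mm9 between these genes, 54 are on the plus strand, and 6 of those lie in the exon of *Rtl1*, opposite to it. Reads from these miRNA precursors and from *Rtl1* can be told apart only if counting used strand, which is not stated in the sources used here. The RefSeq mature sequences (table of build GRCm38.p6, found once each in *Rtl1* on mm9) are shown for 1 arm of each of the 6 hairpins, because the allelic votes of *Rtl1* are to be read beside them, with the seed (bases 2 to 8) in capitals. The 11 mature miRNAs of these hairpins hold 11 different seeds.
miR-431-5p: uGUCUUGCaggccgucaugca
miR-433-3p: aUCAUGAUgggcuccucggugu
miR-127-3p: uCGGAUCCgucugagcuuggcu
miR-434-3p: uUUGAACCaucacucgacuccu
miR-432: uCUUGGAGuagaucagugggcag
miR-136-5p: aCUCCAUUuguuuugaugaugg

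The promoters of *Dlk1* and *Meg3*, the 2 genes of the cluster with the most reads, are shown because they are read from opposite parental chromosomes in the results below. Each runs from 250 bases before to 50 after the RefSeq start, on the plus strand of mm9, with every CpG in capitals (*Dlk1*, chr12:110690783-110691082; *Meg3*, chr12:110778956-110779255).
*Dlk1*: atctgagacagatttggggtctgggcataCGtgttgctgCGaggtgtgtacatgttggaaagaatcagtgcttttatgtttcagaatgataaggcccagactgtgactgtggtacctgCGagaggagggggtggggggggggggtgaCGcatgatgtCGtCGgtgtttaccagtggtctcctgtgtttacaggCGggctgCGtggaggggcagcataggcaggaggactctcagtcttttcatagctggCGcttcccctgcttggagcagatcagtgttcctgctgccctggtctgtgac
*Meg3*: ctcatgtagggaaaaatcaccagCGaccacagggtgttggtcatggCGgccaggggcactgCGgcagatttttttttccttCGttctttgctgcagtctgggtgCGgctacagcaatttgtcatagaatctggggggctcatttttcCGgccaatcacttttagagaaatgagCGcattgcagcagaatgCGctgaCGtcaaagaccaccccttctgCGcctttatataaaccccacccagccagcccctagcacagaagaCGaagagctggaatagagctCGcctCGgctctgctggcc
The *Dlk1* window holds 9 CpG and the *Meg3* window 13, beside a median of 7 over the 32851 promoters of the RefSeq table, while that of *Dio3* holds 25, more than 81.6% of promoters, that of *Mirg* 10 and that of *Rian* 0. The letters TATAAA occur in the *Meg3* window shown and in that of *Dio3* and, on either strand, in 13.6% of all promoters. RefSeq gives *Meg3* another start as well, whose window (chr12:110783358-110783657) is not shown. It holds 1 CpG, more than 5.43% of promoters, and no TATAAA. No promoter was given for *Rtl1*. These counts describe the sequence and no binding or methylation was measured.

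F1 embryos had 15703888 to 38234229 counted reads and N2 embryos 245220 to 5370322, so a single read stood for about 0.0332 RPM in a typical B6 × Cast embryo and for 0.435 RPM in a typical N2 embryo of a B6 mother. Somite number, the measure of stage, differed between the F1 litters: it was 58 to 63 (2 of 3 embryos counted) and 48 to 50 (5 of 5) in the litters of B6 × Cast, and 46 to 48 (3 of 4) and 41 to 43 (3 of 4) in those of Cast × B6. In N2 embryos it ran from 42 to 57 (median 48) with B6 mothers and from 43 to 54 (median 50) with F1 mothers. Of 14 sequencing lanes of N2 embryos, 1 held embryos of both kinds of mother. Markers of trophoblast, a check for placental tissue, were low at the median: their sum over 15 genes had a median of 1.48 and 1.01 RPM in the F1 crosses and of 0.41 and 1.18 RPM in the N2 groups. The highest sums of single embryos were 2.72 RPM in B6 × Cast and 1.45 RPM in Cast × B6. In N2 embryos they were 25.3 RPM with B6 mothers and 7.47 RPM with F1 mothers. *Elf5* had the most reads of the 15, 495 in F1 and 221 in N2 embryos. No embryo had a read of *Prl3d1*, *Prl3d2*, *Prl2c2*, *Cts7* or *Ctsq*, 5 of the 15.

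Several embryos stood apart. In B6 × Cast embryo 4, 3.23% of *Meg3* votes were Cast, against at most 0.156% in the other 7, and 12.8% of *H19* votes against at most 0.231%. Its Cast share at *Rian* was 6.45% (2 of 31 votes, at most 5% in the others) and at *Cdkn1c* 0.286%, below the 0.431 to 2.08% of the others, while its shares at *Igf2*, *Grb10*, *Mirg* and *Dlk1* lay within their range. Cast × B6 embryo 1 had 16.4 RPM of *Rian*. N2 embryo 46 of the B6 mothers was called B6/B6 at *Dlk1*, yet 103 of its 110 *Dlk1* votes were Cast. Its votes at *Begain*, on the *Dlk1* side of the cluster, were 20 B6 and 0 Cast. At *Ppp2r5c*, on the *Dio3* side, it was called heterozygous with 4 B6 and 15 Cast votes, and its only *Dio3* vote was Cast. Of 1465 genes called B6/B6 in it with at least 10 votes, 1 was mostly Cast. Whether its call at *Dlk1* or the votes are in error was not tested. N2 embryo 55 of the B6 mothers was heterozygous at *Dlk1*, *Meg3* and *Rtl1* and B6/B6 at *Rian*, *Mirg* and *Dio3*. The 11 embryos of lane J, all of B6 mothers, had a median of 577807 reads against 2333031 elsewhere. The main comparisons that hold B6 × Cast embryo 4, Cast × B6 embryo 1 (levels only), N2 embryo 46 (genotype effects only) or lane J (levels only) were repeated without it, and embryo 55 was kept in every comparison.

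Allelic origin was read as the B6 allele fraction (BAF), the share of a gene's votes that were B6. A read that covers SNPs gives 1 vote, split over them. A gene was called imprinted when the pooled votes of both crosses, tested by a two-sided binomial test with Bonferroni adjustment at 0.01, favoured opposite strains. Of the 6 genes 5 had the 20 votes per cross that the test needed, and 4 of these were called, *Dlk1* from the father and *Meg3*, *Rian* and *Mirg* from the mother. Over the genome 1.36% of 11903 genes were called, 0.235% with the paternal allele higher and 1.13% with the maternal allele higher. A quasi-binomial test over embryos called the same 4 members and 20 genes in all, in place of 162, and without B6 × Cast embryo 4 the binomial test called the same 4 and 185 in all.

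*Dlk1* was read almost wholly from the paternal allele. Its BAF in the 8 B6 × Cast embryos was 0.0437 at the lowest, 0.0578 at the median and 0.0652 at the highest. In the 8 Cast × B6 embryos it was 0.892, 0.904 and 0.920. The crosses did not overlap, and the means, 0.0568 ± 0.0062 and 0.905 ± 0.010 (SD, n = 8 each), differed with p = 0.000155 in a two-sided exact permutation test over embryos, the smallest value that 8 against 8 allows.

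*Dio3*, at the other end of the cluster, followed the father only in part. Its BAF ran from 0.0811 through a median of 0.251 to 0.387 in B6 × Cast, on 17 to 102 votes an embryo. In Cast × B6 it ran from 0.30 through 0.544 to 0.667, on 18 to 30 votes. The embryos of the crosses overlapped, although the means, 0.228 ± 0.103 and 0.522 ± 0.142, differed (exact permutation p = 0.000622, n = 8 each). Pooled, 96 of 441 votes were B6 in B6 × Cast, which gives 21.8% (exact 95% interval 18.0 to 25.9%). In Cast × B6, 100 of 188 were B6, or 53.2% (45.8 to 60.5%), so the paternal allele and the maternal one had nearly equal votes there, and the gene was not called (Bonferroni-adjusted binomial p = 1 in Cast × B6). Its antisense neighbour *Dio3os* had 40 B6 and 80 Cast votes in B6 × Cast and 55 B6 and 24 Cast in Cast × B6 and was not called either.

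*Rtl1*, the third coding gene, had 22 F1 votes in all, 6 B6 and 6 Cast in B6 × Cast and 6 B6 and 4 Cast in Cast × B6, too few for a call. In heterozygous N2 embryos it had 3 votes with B6 mothers, all B6, and 3 with F1 mothers, all Cast. All 6 of these votes carried the maternal allele. They were fewer than any test here requires, and the opposite strand of its exon holds the hairpins shown above.

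The noncoding RNAs were read from the maternal allele. The BAF of *Meg3* in B6 × Cast was 0.968, 0.999 and 0.999 at the lowest, median and highest, and in Cast × B6 it was 0.0033, 0.0071 and 0.0183. *Rian*, a host of small nucleolar RNAs, had 0.935, 0.988 and 1.00 in B6 × Cast and 0, 0 and 0.0364 in Cast × B6, on 13 to 65 votes an embryo. *Mirg*, which holds a long array of miRNAs, had 0.887, 0.942 and 0.981 in B6 × Cast and 0.0575, 0.0843 and 0.186 in Cast × B6. None of the 3 overlapped between crosses, and each difference of means (0.995 ± 0.011 and 0.0078 ± 0.0046 for *Meg3*, 0.978 ± 0.026 and 0.0101 ± 0.0151 for *Rian*, 0.941 ± 0.032 and 0.097 ± 0.041 for *Mirg*) reached the smallest exact permutation p of 0.000155 at n = 8 each. Leaving out B6 × Cast embryo 4 changed none of these calls. The share of all genes whose BAF separates the crosses without overlap, as for these genes and *Dlk1*, was not counted.

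**Figure D1:**
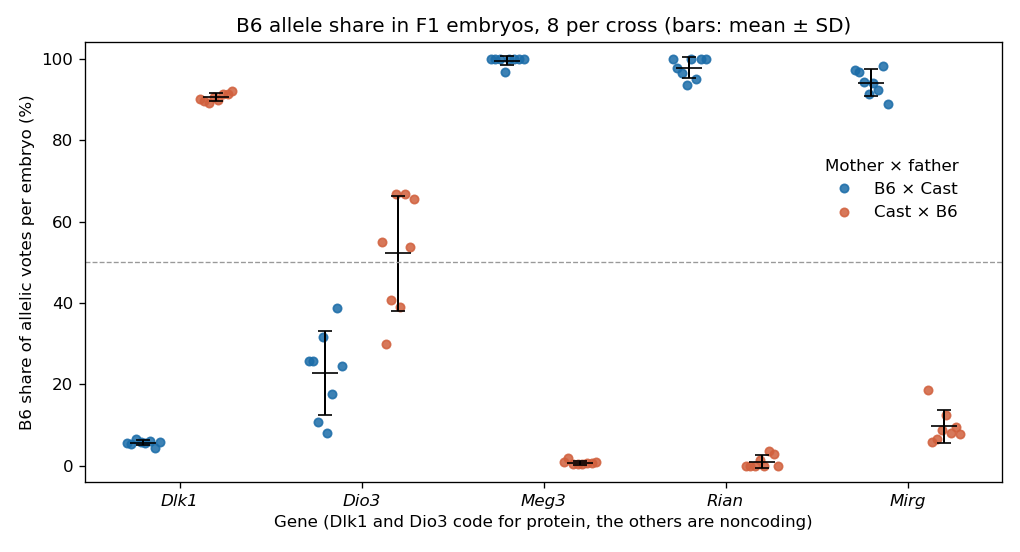
B6 share of allelic votes (%, y axis) in each F1 embryo, by gene and cross (blue B6 × Cast, orange Cast × B6; points are embryos, 8 per cross, black bars the mean ± SD, the dashed line 50%). *Dlk1* sits below 7% in B6 × Cast and above 89% in Cast × B6, the noncoding genes lie the other way round, and the *Dio3* embryos of the crosses overlap.

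The rows of the domain's miRNA and small RNA genes, which 3SEQ catches only where polyadenylated precursors cover them, were almost all read from the mother as well. Of 59 such rows, 18 had a vote in F1 embryos, and together they had 204 maternal votes and 2 paternal ones. *Mir377* had 18.5 B6 votes of 18.5 in B6 × Cast and 32 Cast votes of 32 in Cast × B6. *Mir434*, opposite to *Rtl1*, had 11 of 11 and 13 of 13, *Mir376b* 8 of 8 and 12 of 12, and the small RNA row *AF357359* 4 of 4 and 19 of 19. The rows overlap the long host transcripts, so these votes are not independent of those of the hosts, and all but 1 of the 59 rows averaged under 1 RPM.

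The same direction was measured in the next generation, in heterozygous N2 embryos with at least 10 votes. *Dlk1* had a median BAF of 0.0616 (range 0 to 0.118, n = 34) with B6 mothers and of 0.914 (0.846 to 1.00, n = 27) with F1 mothers. *Meg3* had 0.999 (0.899 to 1.00, n = 43) and 0.0084 (0 to 0.0252, n = 34). Neither gene overlapped between mothers, and both differences had the smallest p that 100000 resamples allow in a permutation test (1e-05). The share of all genes that separate the mothers in this way was not counted. *Dio3* reached 10 votes in 10 heterozygous embryos. Its BAF was 0.091, 0.100, 0.167, 0.250, 0.364 and 0.406 in the 6 of B6 mothers and 0.555, 0.571, 0.636 and 0.750 in the 4 of F1 mothers. Here the groups did not overlap, and the means were 0.230 ± 0.134 and 0.628 ± 0.088 (exact permutation p = 0.00476). Pooled binomial tests over heterozygous embryos called *Dlk1*, *Meg3* and *Rian*, 3 of the 4 members with the votes, beside 0.358% of 9215 genes. *Rian* had 56 B6 and 0 Cast votes with B6 mothers and 0 and 36 with F1 mothers. *Mirg* had 30 and 1, and 0 and 19, 1 vote short of the minimum.

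The genotypes deposited for N2 embryos were themselves derived from these reads, smoothed along each chromosome. B6/B6 embryos show the error of the Cast votes. The backcross gives no Cast/Cast embryos, so the error of the B6 votes was not measured. With B6 mothers, *Meg3* had 0.0629% Cast votes in them, or 0.0387% without embryo 46, and with F1 mothers 0.149%. *Dlk1* had 2.45% Cast votes in B6/B6 embryos of B6 mothers, and 0.262% without embryo 46. That embryo, whose call at *Dlk1* its votes contradict, gave 103 of the 115 Cast votes. With F1 mothers *Dlk1* had 0.0392%.

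**Figure D2:**
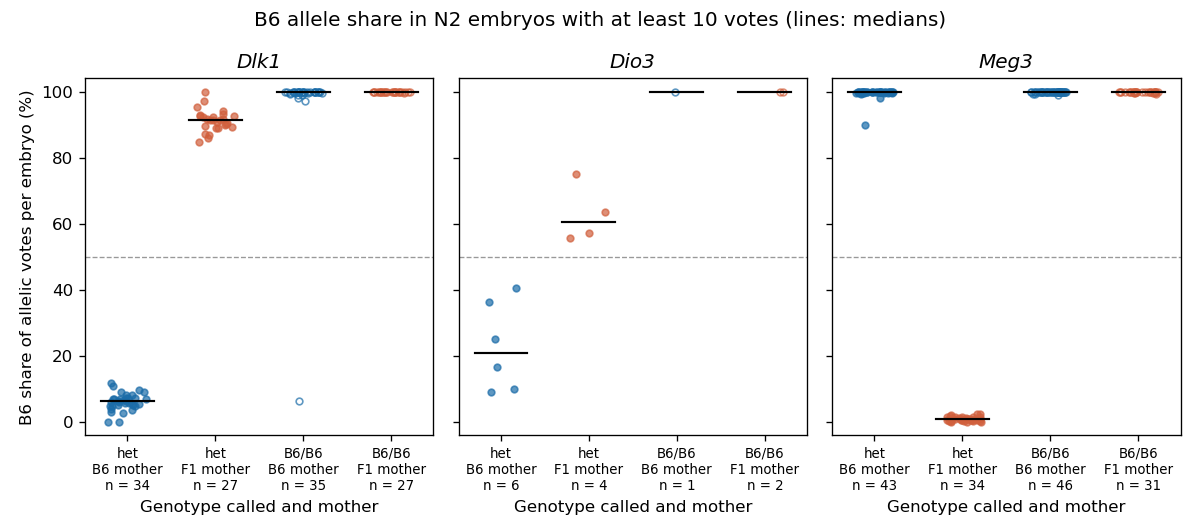
B6 share of allelic votes (%, y axis) in N2 embryos with at least 10 votes, by called genotype and mother (filled points heterozygous, open points B6/B6, blue B6 mothers, orange F1 mothers, lines the medians, n under each group). Heterozygous embryos separate by mother at all 3 genes, and 1 embryo called B6/B6 at *Dlk1* sits at 6.4% B6.

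The votes of the allele known as silent, maternal for the coding and paternal for the noncoding genes, were compared between the crosses. A swap of cross changes the strain of the silent allele, that of the expressed allele, the mother and the litters together. These cannot be told apart here. For *Dlk1* the silent share differed between the crosses. The share was 4.37, 5.78 and 6.52% (lowest, median, highest) when B6 supplied the silent allele and 7.98, 9.55 and 10.8% when Cast did, with no overlap between the crosses. The means, 5.68 ± 0.62% and 9.46 ± 1.01%, differed by 3.78 points (exact permutation p = 0.000155, n = 8 each). In the litters closest in stage they differed by 3.27 points (p = 0.00794 by the exact permutation test, n = 5 and 4). The Cast × B6 litter of that pair was labelled with a different pair of sequencing runs, so cross and run cannot be told apart there. In heterozygous N2 embryos the pooled shares were 6.29% (exact 95% interval 5.67 to 6.94%) with B6 maternal and 8.84% (7.82 to 9.95%) with Cast maternal.

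*Dio3* had a larger silent share in either cross, 22.8 ± 10.3% and 47.8 ± 14.2%, again higher with a Cast silent allele (exact permutation p = 0.00109, n = 8 each), although the difference was 19.7 points with p = 0.0556 in the stage-matched litters. For the noncoding genes the silent allele is paternal, so Cast supplied it in B6 × Cast and B6 in Cast × B6. *Mirg* had 5.85 ± 3.23% with a Cast silent allele and 9.70 ± 4.11% with a B6 one (exact permutation p = 0.048, n = 8 each, and p = 0.278 in the stage-matched litters). The largest *Mirg* share, 18.6%, was that of Cast × B6 embryo 1, in which *Rian* had 0 B6 votes of 55. For *Rian* the shares were 2.17 ± 2.60% and 1.01 ± 1.51% (exact permutation p = 0.321, n = 8 each).

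For *Meg3* a single embryo decided the comparison. With all embryos the means were 0.487 ± 1.11% with a Cast silent allele and 0.776 ± 0.464% with a B6 one (exact permutation p = 0.57, n = 8 each). Without B6 × Cast embryo 4 the Cast × B6 share was higher by 0.680 points (exact permutation p = 0.000466, n = 7 and 8), and in the stage-matched litters, which hold that embryo, it was lower by 0.104 points (exact permutation p = 1, n = 5 and 4). N2 embryos showed the same order. The share was 0.175% (exact 95% interval 0.130 to 0.231%) with B6 mothers, where Cast was silent. It was 0.801% (0.703 to 0.912%) with F1 mothers, where B6 was silent. The second share consists of B6 votes, for which no error was measured. Of the 50 Cast votes with B6 mothers, 8 came from embryo 60, in which 10.1% of 79 *Meg3* votes were Cast and 0 of 863 *H19* votes. Without it the pooled share was 0.148%. The intervals cover counting error only.

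No relation of the silent shares of *Dlk1* and *Meg3* with stage passed a test. Within each kind of mother, none of the 4 Spearman correlations with somite number in heterozygous N2 embryos (n = 24 to 40) passed a permutation test, with rho from -0.22 to 0.24, and 0 had an unadjusted permutation p under 0.05 by Spearman or Pearson correlation.

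Levels by F1 cross were compared next, as RPM and with edgeR's quasi-likelihood test over all genes with Benjamini-Hochberg adjustment at 0.05. In whole embryos fewer cells of a type and less RNA per cell cannot be told apart. Of the 6 genes, 3 were called, all lower in Cast × B6, where 25.9% of 14625 genes were called and 12.3% were called lower. *Meg3* changed most. Its level ran from 589 through a median of 879 to 1808 RPM in B6 × Cast and from 289 through 439 to 568 RPM in Cast × B6. The crosses did not overlap, and Cast × B6 was 2.26-fold lower (log2 difference -1.18, SE 0.19, edgeR adjusted p = 0.000832). The share of all genes whose levels separate the crosses without overlap, over all embryos or in the litters closest in stage, was not counted.

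*Dio3* ran from 1.66 through 2.22 to 4.41 RPM in B6 × Cast and from 0.706 through 1.57 to 2.03 RPM in Cast × B6, a 1.87-fold lower level (log2 -0.90, SE 0.24, edgeR adjusted p = 0.0127) with some overlap. *Dlk1* ran from 495 through 699 to 1199 RPM and from 442 through 510 to 758 RPM, 1.40-fold lower (log2 -0.48, SE 0.16, edgeR adjusted p = 0.0371), with overlap. *Mirg* had 12.7, 18.7 and 27.1 RPM and 5.62, 11.7 and 22.2 RPM (log2 -0.55, SE 0.20), which missed the threshold in edgeR (adjusted p = 0.0562) and passed it in DESeq2 (adjusted p = 0.0367). *Rtl1* had 2.12, 2.93 and 6.14 RPM and 0.927, 2.42 and 4.53 RPM (log2 -0.32, SE 0.28, edgeR adjusted p = 0.415).

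*Rian* was the only gene of the cluster with a higher mean in Cast × B6 (1.60, 2.96 and 4.05 RPM against 1.93, 3.63 and 16.4 RPM, log2 0.86, SE 0.40, edgeR adjusted p = 0.12). Without Cast × B6 embryo 1 its difference was 0.16 (SE 0.21, edgeR adjusted p = 0.587).

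The litters of the crosses differed in stage, and the oldest litter carried much of the difference. *Dlk1* had 997, 1102 and 1199 RPM in the 3 embryos of the B6 × Cast litter with 58 to 63 somites and 495, 528, 568, 570 and 828 RPM in the 5 of the litter with 48 to 50. *Meg3* had 1403, 1562 and 1808 RPM in the older and 589, 707, 712, 818 and 939 RPM in the younger. Neither gene overlapped between these litters, and the share of all genes that separate them in this way was not counted. Between the litters of 48 to 50 and 46 to 48 somites, 1 of the 6 genes was called by edgeR, beside 10.7% of all genes: *Meg3* was at 423, 456, 540 and 568 RPM in the Cast × B6 litter, all below the 5 B6 × Cast embryos of that pair of litters (log2 -0.65, SE 0.14, edgeR adjusted p = 0.0164). That Cast × B6 litter was labelled with a different pair of sequencing runs from the other 3 F1 litters, so cross and run cannot be told apart there. *Dlk1* there had a log2 difference of -0.24 (SE 0.17, edgeR adjusted p = 0.392) and *Dio3* of -0.22 (SE 0.19, edgeR adjusted p = 0.48). With the oldest litter alone left out, *Meg3* was again the member called (log2 -0.75, SE 0.13, edgeR adjusted p = 0.00626).

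Other genes moved with the crosses. Among fetal liver markers 10 of 12 were lower in Cast × B6, beside 12.3% of all genes, their sum running from 1358 to 3876 RPM in B6 × Cast and from 618 to 1622 RPM in Cast × B6, and among skeletal muscle markers 7 of 12 were lower, with sums of 1001 to 1945 RPM and 757 to 1010 RPM. Of neuron markers 1 of 12 was lower. The part of these tissues, and of stage beyond the matched litters, in the differences of the cluster was not tested.

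**Figure D3:**
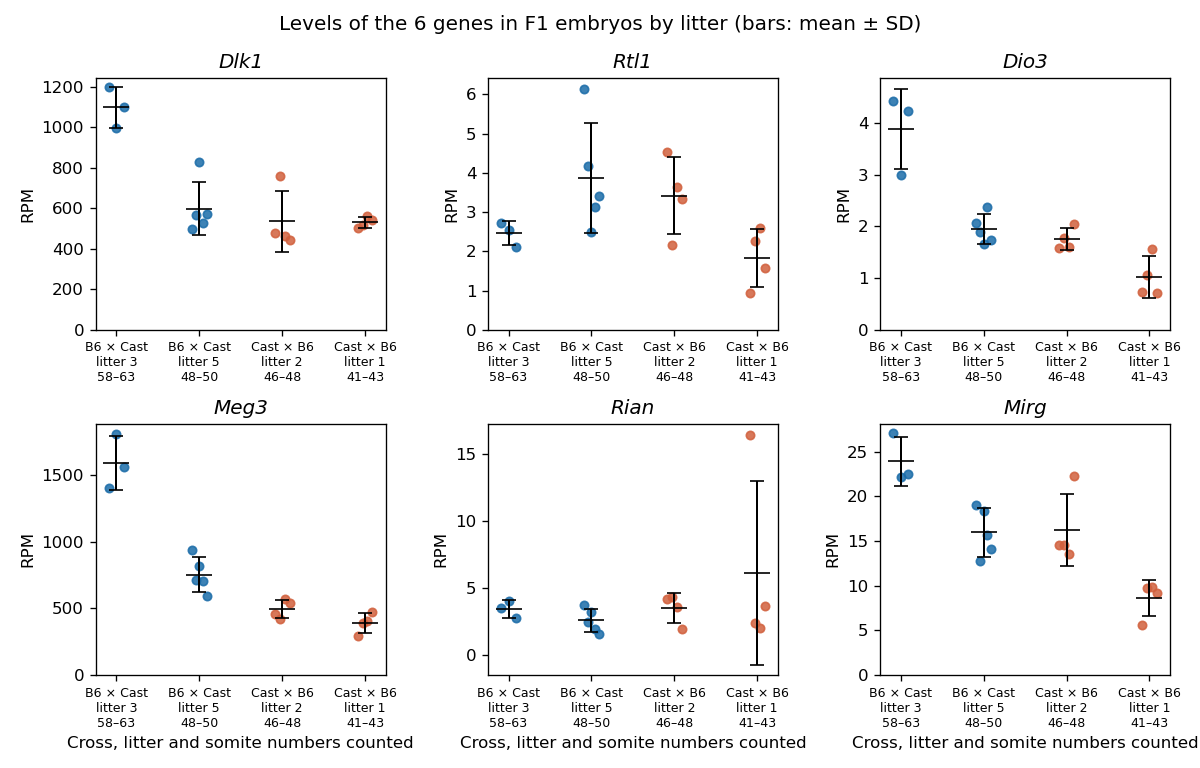
RPM (y axis, linear) of the 6 genes in each F1 embryo, by litter from the oldest to the youngest (blue B6 × Cast, orange Cast × B6; bars are the mean ± SD of the litter, and the panel of *Rian* starts below 0 to show its bar). *Dlk1*, *Dio3* and *Meg3* are highest in the B6 × Cast litter of 58 to 63 somites, and 1 embryo sets the spread of *Rian* in the youngest litter.

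In N2 embryos stage was tested directly, by Spearman correlation of RPM with somite number over 147 embryos, among genes that averaged 5 RPM or more, with Benjamini-Hochberg adjustment over them. *Dlk1*, *Rtl1*, *Meg3* and *Mirg* passed the minimum, *Rtl1* only through lane J. *Meg3* and *Mirg* were called, both higher in older embryos, beside 22% of 10007 genes called, 14.1% higher and 7.97% lower. *Meg3* had a median of 699 RPM in the 21 embryos with 42 to 45 somites, 608 RPM in the 58 with 46 to 49, 779 RPM in the 61 with 50 to 53 and 1438 RPM in the 7 with 54 to 57. The rise stood out in the oldest embryos, and rho was 0.36 (adjusted p = 0.000137), with Pearson's r at 0.44 (permutation p = 1e-05) and at 0.39 without the 2 embryos farthest from the median stage. *Mirg* had medians of 10.7, 15.1, 16.8 and 25.3 RPM in those bins, with rho 0.26 (adjusted p = 0.0126) and r 0.27 (permutation p = 0.00089, 0.26 without 2 embryos).

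*Dlk1* had medians of 339, 424, 546 and 644 RPM over the same bins, with ranges that overlapped almost fully, and its rho of 0.19 missed the threshold (adjusted p = 0.0744, r 0.12, permutation p = 0.162, and r 0.14 without 2 embryos). *Rtl1* had rho 0.18 (adjusted p = 0.0969, r 0.19, permutation p = 0.0172, and r 0.20 without 2 embryos). *Dio3*, under the 5 RPM minimum, was tested with a minimum of 1 RPM, where rho was 0.42 (adjusted p = 3.58e-06, r 0.41, permutation p = 1e-05, and r 0.37 without 2 embryos). Its medians were 1.31, 1.90, 3.03 and 2.94 RPM. *Rian* was not tested across genes, with a mean of 0.889 RPM and no read in 46 of 154 embryos.

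**Figure D4:**
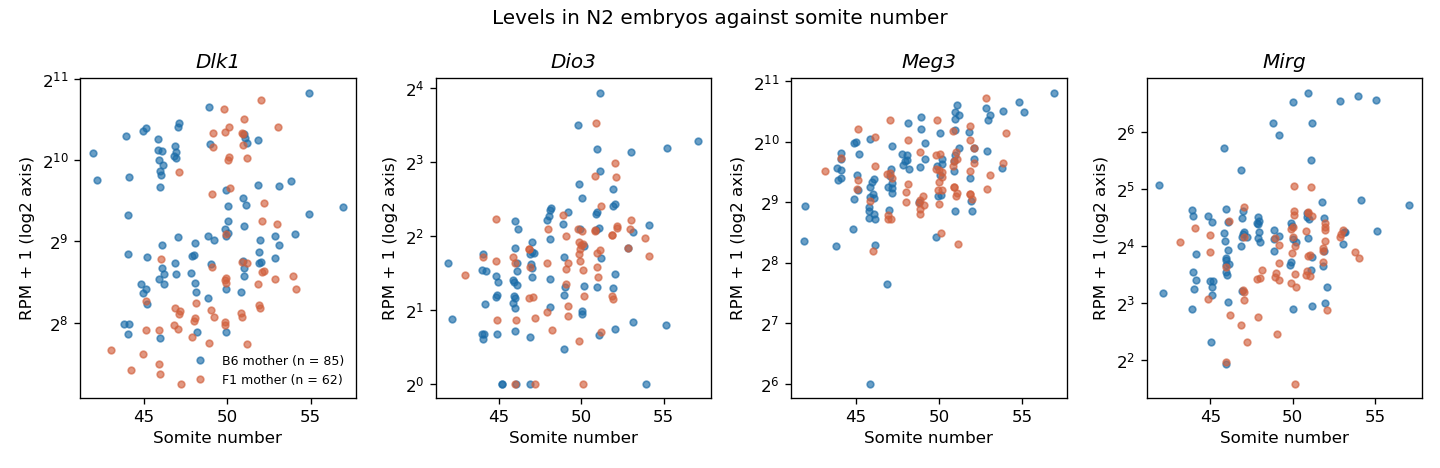
RPM + 1 (y axis, log2 axis) of 4 genes against somite number (x axis, points spread slightly sideways) in N2 embryos, 85 of B6 mothers (blue) and 62 of F1 mothers (orange). *Meg3*, *Dio3* and *Mirg* drift upwards with stage, while the *Dlk1* embryos of B6 mothers form no trend.

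Stage was also tested within each kind of mother, with lane not taken out. With B6 mothers rho was 0.51 for *Meg3* (adjusted p = 1.22e-05, n = 85) and 0.075 for *Dlk1* (adjusted p = 0.565). With F1 mothers it was 0.20 for *Meg3* (adjusted p = 0.245, n = 62) and 0.53 for *Dlk1* (adjusted p = 0.000542). Each gene passed under 1 kind of mother alone, and the difference between the mothers was not tested. Lane E, with the lowest *Dlk1* median by lane (202 RPM), held embryos of F1 mothers with 43 to 48 somites. In lane M, with the highest (1169 RPM), the embryos of F1 mothers had 49 to 52 somites. Stage and lane were not separated within either kind of mother. Over both kinds of mother, with lane taken out, rho was 0.26 for *Dlk1* (adjusted p = 0.0191), 0.42 for *Meg3* (adjusted p = 8.18e-06) and 0.30 for *Mirg* (adjusted p = 0.00409). Of all genes 13% were called there. A count model with lane gave slopes of 0.10 log2 per somite (SE 0.018, edgeR adjusted p = 1.47e-05) for *Meg3* and 0.066 (SE 0.021, edgeR adjusted p = 0.0269) for *Mirg*, where 9.03% of genes were called. Over means of the 29 litters none of the 4 genes was called by the Spearman test, 1 had an unadjusted p under 0.05 (*Meg3*, rho 0.45, p = 0.0155, adjusted p = 0.297), and no other tool was run on them. Without lane J (n = 136) *Meg3* and *Mirg* were again called, with rho 0.34 (adjusted p = 0.000597) and 0.21 (adjusted p = 0.0438), and *Dlk1* and *Rtl1* were not (rho 0.17 and 0.13, adjusted p = 0.121 and 0.249).

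By mother, the comparison asks whether the level differs between embryos of B6 and of F1 mothers. In heterozygous embryos the kind of mother also sets which parent gave the Cast allele. The pooled test does not separate that origin from the mother's genome. Two-sided Mann-Whitney tests with Bonferroni adjustment at 0.01 called 0 of the 4 genes that passed 5 RPM, beside 5.03% of 9733 genes, while 3 had an unadjusted p under 0.05. *Rtl1* passed that minimum only through lane J, whose embryos all had B6 mothers. Its test by mother is therefore not independent of the filter. *Dlk1* had a median of 533 RPM (223 to 1819) with B6 mothers and 366 RPM (151 to 1716) with F1 mothers (unadjusted p = 0.00113, adjusted p = 1). *Mirg* had 16.8 RPM (2.80 to 102) and 13.7 RPM (1.99 to 32.4), unadjusted p = 0.00568, and *Rtl1* 2.86 RPM (0 to 139) and 1.48 RPM (0 to 27.5), unadjusted p = 0.00334. *Meg3* had 756 RPM (63.1 to 1795) and 700 RPM (292 to 1697), unadjusted p = 0.233. The ranges overlapped widely for every gene.

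edgeR with TMM scaling, which kept 3 of the 4 past its own filter, called 1 at 0.01, *Mirg* (log2 -0.68, SE 0.15, adjusted p = 0.000176), where 16.6% of genes were called. DESeq2 called *Mirg* and also *Rtl1*, which entered its test only through lane J. *Dlk1* missed that threshold in both (log2 -0.32, SE 0.12, edgeR adjusted p = 0.0449, and DESeq2 adjusted p = 0.0362), and at 0.05, the threshold of the other edgeR tests here, it would pass. Without lane J the unadjusted p of *Mirg* was 0.106, that of *Rtl1* 0.0696 and that of *Dlk1* 0.00816. Within the second flowcell the median of *Dlk1* was 342 RPM higher with F1 mothers, the opposite of the pooled difference. Since 13 of the 14 lanes hold embryos of 1 kind of mother, lane and mother cannot be told apart for most embryos.

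Levels also differed by lane. The median of *Dlk1* by lane ran from 202 RPM in lane E to 1169 RPM in lane M, a 5.79-fold range, and was 355 RPM over the first flowcell and 886 RPM over the second. *Meg3* ran over a 1.82-fold range, from 536 to 978 RPM. Each lane holds a few litters, so litter and lane cannot be told apart in full.

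Lane J had the highest median by lane of *Rtl1*, *Mirg*, *Dio3* and *Meg3*. Its 11 embryos had 17.1 to 139 RPM of *Rtl1* (median 44.7), on 5 to 69 reads, and 9 of the 10 highest *Rtl1* levels of all N2 embryos. They came from 4 litters, and litter 3 alone also had embryos in other lanes, 8 in lanes F and I, so lane and litter cannot be told apart for the other 3. *Rtl1* was at 44.7, 50.3 and 113 RPM in the 3 embryos of litter 3 in lane J and at 0 to 2.89 RPM (median 0.862) in the 8 elsewhere, with no overlap. *Mirg* was at 39.3 to 102 RPM (median 70.5) over lane J. Within litter 3 it was at 70.5, 93.3 and 102 RPM in lane J and at 2.80 to 20.1 RPM (median 8.96) elsewhere, again with no overlap. *Dio3* within litter 3 was at 7.77, 8.06 and 14.3 RPM in lane J and had a median of 1.80 RPM (highest 5.21) elsewhere, also with no overlap. *Meg3* did not overlap either, at 925, 951 and 1327 RPM in lane J and 63.1 to 733 RPM elsewhere. *Dlk1* and *Rian* overlapped. The share of all genes that separate these embryos of litter 3 by lane was not counted. Skeletal muscle markers summed to 1277 to 2183 RPM in lane J and to 501 to 2061 RPM elsewhere, neuron markers had medians of 2031 and 1482 RPM and fetal liver markers of 746 and 1148 RPM, while trophoblast markers had medians of 0 and 0.756 RPM, with a Spearman rho of -0.095 between *Rtl1* and their sum over the 154 embryos. Without lane J the mean of *Rtl1* was 3.22 RPM, under the minimum it otherwise passed with 7.16 RPM.

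**Figure D5:**
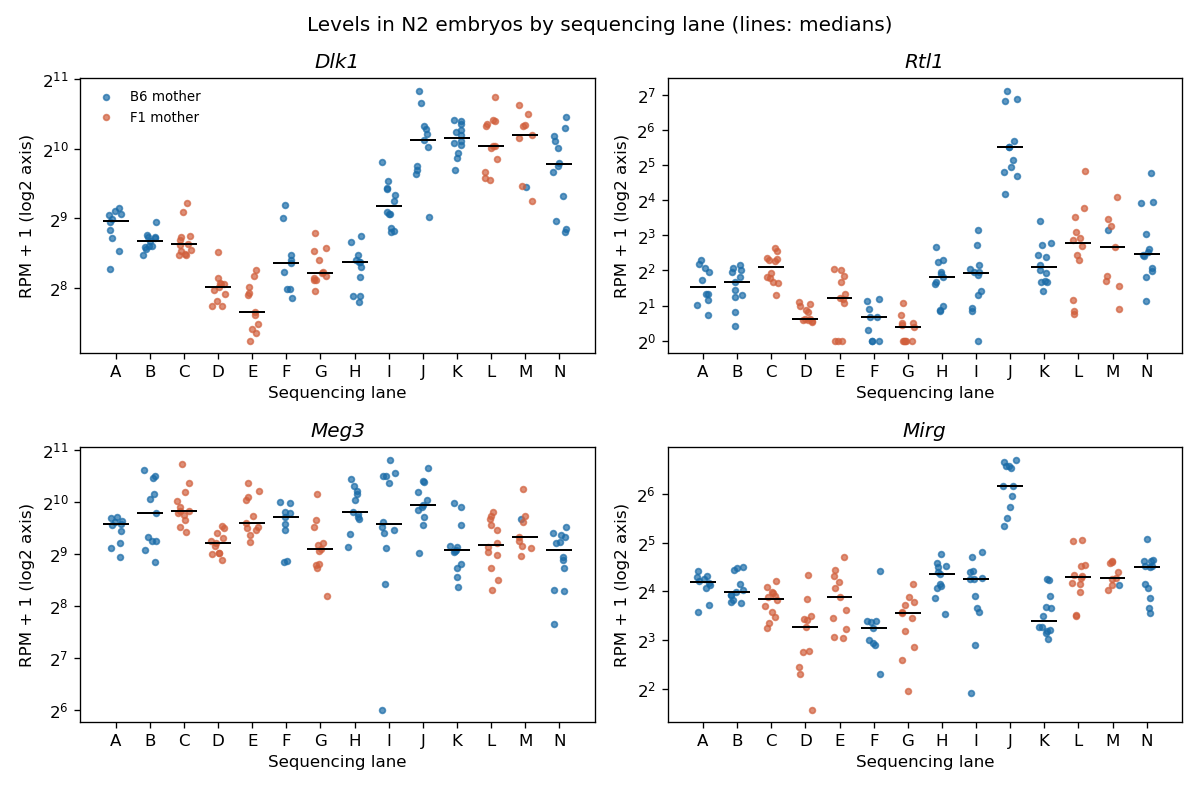
RPM + 1 (y axis, log2 axis) of 4 genes in N2 embryos by sequencing lane (x axis, lanes A to N; blue B6 mothers, orange F1 mothers; lines are lane medians). *Rtl1* and *Mirg* are highest in lane J, *Dlk1* is higher from lane I on, and 1 embryo in lane I has 63.1 RPM of *Meg3*.

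The effect of an embryo's own genotype at each gene was tested on log2(RPM + 1) after lane, by rank-sum tests of heterozygous against B6/B6 embryos with Benjamini-Hochberg adjustment at 0.01. It called 0 of the 4 genes, beside 19.7% of 9733 genes, and 1 had an unadjusted p under 0.05. That was *Rtl1*, lower by 0.31 in heterozygous embryos (p = 0.00816, adjusted p = 0.0329). The differences of *Dlk1*, *Meg3* and *Mirg* were -0.068, -0.067 and -0.15 (adjusted p = 0.591, 0.396 and 0.485). Without embryo 46 or without lane J, again 0 were called.

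Pooling the mothers mixes a Cast allele that the gene expresses with one that it does not, so the genotype at *Dlk1* was also fitted within each kind of mother. In heterozygous embryos Cast is the mainly expressed allele of *Dlk1* with B6 mothers and of *Meg3* with F1 mothers, by the votes above. Of the 5 genes tested by edgeR's quasi-likelihood test, 0 were called with B6 mothers (0.096% of 12505 genes were), 0 with F1 mothers (0.168%), and 0 for the difference between the mothers (0%), and DESeq2 called 0 in each as well, as did edgeR without embryo 46 and without lane J.

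At an unadjusted p under 0.05 there was 1 gene with B6 mothers, *Dio3*, at a median of 2.43 RPM in heterozygous and 1.68 RPM in B6/B6 embryos (log2 0.58, SE 0.19, unadjusted edgeR p = 0.00252), against 1.5% of all genes. With F1 mothers there were 2, *Mirg* with 12.1 and 15.0 RPM (log2 -0.34, SE 0.13, unadjusted edgeR p = 0.0085) and *Rtl1* with 1.3 and 2.2 RPM (log2 -0.70, SE 0.26, unadjusted edgeR p = 0.0087), against 3.69%. The difference between mothers was under 0.05 for *Mirg* alone (log2 -0.43, SE 0.17, unadjusted edgeR p = 0.0111). *Dlk1* differed by -0.11 (SE 0.073) where its expressed allele was Cast and by 0.023 (SE 0.083) where its silent one was, and *Meg3* by -0.20 (SE 0.12) where its expressed allele was Cast and by -0.013 (SE 0.11) where its silent one was.

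Over the 154 N2 embryos, and after lane, the genes did not all vary together. *Rtl1* and *Mirg* had the highest correlation (Spearman's rho 0.53, Pearson's r 0.51, permutation p = 1e-05 for both, r 0.48 without 2 embryos), and *Mirg* ranked 3 among 9732 genes by rho with *Rtl1*. *Meg3* and *Mirg* had rho 0.37 and r 0.48 (permutation p = 1e-05 for both, r 0.37 without 2 embryos), and *Rtl1* and *Meg3* rho 0.28 (permutation p = 0.00036) and r 0.33 (permutation p = 8e-05, r 0.38 without 2 embryos). These 3 of 6 pairs had an adjusted p under 0.05 over all genes, where 13.6% of genes passed with *Rtl1*, 36.6% with *Meg3* and 20.2% with *Mirg*. *Dlk1* passed with none of the others (rho from -0.12 to 0.10), although 43.1% of all genes passed with it.

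With litter in place of lane, *Rtl1* and *Meg3* lost the call (rho 0.17, adjusted p = 0.077) and *Dlk1* and *Rtl1* passed (rho 0.21, adjusted p = 0.0144). *Rtl1* reached the 5 RPM minimum only through lane J, and its reads cannot be told apart from those of the precursors on the opposite strand. Without lane J the *Rtl1* and *Mirg* levels, with lane not taken out, had rho 0.62, and 0.70 with it. The genes closest to *Dlk1* by rho were *Add1* (0.65), *Arhgap23* (0.62), *Leprel2* (0.61), *1300018I17Rik* (0.60) and *Kif21b* (0.60). Those closest to *Meg3* were *Mapt* (0.72), which encodes the neuronal protein tau, *Slc22a17* (0.72), *Col27a1* (0.70), *Myh3* (0.69), the embryonic myosin heavy chain of skeletal muscle, and *Snhg11* (0.67), over 154 embryos that share lanes and litters.

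The coding and noncoding genes were set against each other as the ratio of their summed RPM, a description dominated by *Dlk1* and *Meg3*. The median ratio was 0.763 (0.524 to 0.991) in B6 × Cast and 1.21 (0.794 to 1.72) in Cast × B6, with overlap. By litter the medians were 0.699 and 0.790 in B6 × Cast (58 to 63 and 48 to 50 somites) and 0.902 and 1.33 in Cast × B6 (46 to 48 and 41 to 43 somites). In N2 embryos it was 0.748 (0.242 to 13.7) with B6 mothers and 0.498 (0.164 to 3.82) with F1 mothers. By genotype at *Dlk1* it was 0.727 in heterozygous and 0.853 in B6/B6 embryos of B6 mothers, and 0.532 and 0.444 with F1 mothers. Lane and mother cannot be told apart for most N2 embryos, and the level of *Dlk1* differed by lane.

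Genes around and beyond the cluster gave context. Of 61 small RNA and antisense rows of the domain 6 had the reads for the F1 test, and 2 were lower in Cast × B6: *6430411K18Rik*, which lies among them, with 3.94 RPM against 1.41 RPM (log2 -1.38, edgeR adjusted p = 0.00625), and *Mir337* with 0.632 RPM against 0.201 RPM (log2 -1.61, edgeR adjusted p = 0.0106). Of 16 genes beside the domain 3 were higher and 1 was lower in Cast × B6, beside 13.6% and 12.3% of all genes, the last being *Begain*, with 26.3 RPM against 18.4 RPM (log2 -0.45, edgeR adjusted p = 0.00413). *Begain* had votes of both alleles in either cross (54.8% and 71.2% B6) and was not called imprinted.

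Of 29 genes of the Notch pathway, of which *Dlk1* is a relative, 8 were higher and 3 were lower in Cast × B6, where 13.6% of all genes were called higher and 12.3% lower, including *Hes1*, a Notch target, with 11.7 RPM against 22.8 RPM (log2 1.07, edgeR adjusted p = 0.00926), and *Dlk2*, the paralog of *Dlk1*, with 9.53 RPM against 5.62 RPM (log2 -0.68, edgeR adjusted p = 0.00876). The median log2 difference of the 29 was 0.30, and that of all genes 0.032. With somite number 3 of 27 rose and 0 fell, beside 14.1% and 7.97% of all genes. Of 15 genes of the thyroid hormone pathway, in which *Dio3* acts, 7 of 9 tested rose with somite number, against 14.1% of all genes, among them *Ttr*, the thyroid hormone carrier (rho 0.57, adjusted p = 1.17e-11), and *Rxrg*, a partner of the thyroid hormone receptors (rho 0.42, adjusted p = 4.81e-06). Their median rho was 0.28 and that of all genes -0.024. In Cast × B6, 1 was higher and 3 were lower of 14, beside 13.6% and 12.3% of all genes. *Ttr* is also on the list of fetal liver markers.

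Of 30 imprinted genes of other domains 2 were higher and 8 were lower in Cast × B6, beside 13.6% and 12.3% of all genes, among them *Grb10*, a growth factor receptor adaptor, with 487 RPM against 221 RPM (log2 -1.05, edgeR adjusted p = 0.0012). By mother 1 of 22 was called, beside 5.03% of all genes: *Cdkn1c*, a cell cycle inhibitor read from the mother, with means of 848 RPM with B6 mothers and 1576 RPM with F1 mothers (Mann-Whitney with Bonferroni adjustment, adjusted p = 0.00358). With somite number, where 14.1% of all genes rose and 7.97% fell, 1 rose, *H19* (rho 0.27, adjusted p = 0.00925), and 1 fell, *Ndn* (rho -0.22, adjusted p = 0.04). Of the fetal liver markers 9 of 11 and of the skeletal muscle markers 8 of 8 rose with somite number, beside 14.1% of all genes. Their part in the rise of *Meg3* and *Mirg* was not tested.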

How the data were processed

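Whole E11.5 embryos freed of placenta and extra-embryonic membranes were profiled by 3SEQ of poly(A) RNA. Per the study's methods, the authors trimmed poly(A) stretches, cut F1 HiSeq reads to the shorter GAIIx length, mapped with Bowtie2 (version not given in the sources used here) to mm9 and to a Cast genome made from it, removed ambiguous reads and counted reads on RefSeq exons, and these raw counts were deposited. The counting strand is not given in the sources used here. Each F1 embryo, sequenced in 2 runs, has 1 deposited column. Allelic votes, deposited by the authors as estimated counts (1 vote a read, split over the SNPs covered), were rounded for binomial tests. Genotype scores (1, 0.5 or 0 per gene and embryo) were deposited by the authors after smoothing of the vote shares along chromosomes with a hidden Markov model. Of the N2 embryos, 160 are labelled with a mother and 154 of these have genotypes and were used, while 8 columns of embryos with no group were not used.

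RPM was computed from the counts. edgeR 4.0.16 (TMM, filterByExpr, quasi-likelihood, Benjamini-Hochberg 0.05) and DESeq2 1.42.0 ran in R 4.3.3, and the rank, binomial and permutation tests in SciPy 1.17.1, the resampled ones with 100000 resamples. Lane was a covariate in the genotype and correlation tests. Own-genotype tests used log2(RPM + 1). Binomial tests needed 20 votes per cross and per-embryo fractions 10. Intervals are exact (Clopper-Pearson), 95%, and cover counting error only, as do depth limits, since reads carry no molecular identifiers. The scripts were tested on simulated data. Binomial p-values measure only the counting error of the pooled votes. The other p-values measure the spread between embryos, many of which share a litter, or between litters for litter means.

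The members, lists and tests were chosen with earlier results of these data known. The 6 members were named in every comparison, with the 5 genes closest to *Dlk1* and to *Meg3*, every small RNA or antisense row of the domain with at least 20 F1 votes, and at most 4 genes of each other list. Alternatives were another vote minimum, scaling, filter, tool, stage-matched litters, flowcells, litter means and left-out embryos, the last (embryos 4, 1 and 46, lane J and the oldest litter) chosen after seeing the data.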

Additional observations from a re-analysis of the deposited data

Results flagged for a closer look

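Of 22 groups of 8 F1 embryos (a member's level or silent share in 1 cross), 4 held an embryo far from the other 7 by Dixon's gap ratio at the 95% level, while chance flags about 1 in 20 groups. *Dlk1* was at 758 RPM in Cast × B6 embryo 6, above 442 to 559 RPM in the others. The share of *Meg3* votes from the paternal allele was 3.23% in B6 × Cast embryo 4, against at most 0.156% in the others, and 1.83% in Cast × B6 embryo 2, against at most 0.83%. *Rian* was at 16.4 RPM in Cast × B6 embryo 1, against 1.93 to 4.36 RPM in the others.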

How the results depend on the processing

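Of the alternatives, 53 counts stayed within 1.5 times the main count and 10 did not, and 270 single values kept their direction and their side of the threshold, 15 changed sign, 12 passed the threshold only under an alternative and 13 lost it. In the stage-matched litters 1 silent share (*Dlk1*) and 1 level (*Meg3*) differed between F1 crosses, in place of 3 and 3, and without the oldest B6 × Cast litter 1 level did. In the stage-matched litters the *Meg3* silent-share difference turned to -0.104 points. With embryos of at least 1 vote, 5 members differed in BAF by mother in place of 3. By mother, in place of 0, edgeR called 1 member, DESeq2 2 (*Mirg*, and *Rtl1*, which passed the minimum only through lane J) and Benjamini-Hochberg adjustment 1. On the second flowcell alone the medians were higher with F1 mothers by 342 RPM for *Dlk1*, 1.78 RPM for *Rtl1* and 0.594 RPM for *Mirg*, and litter means of *Meg3* were higher by 4.65 RPM. By somite number litter means called 0 members in place of 2, with fewer samples. By own genotype, 15 principal components called 1 (*Rtl1*) in place of 0, the difference of *Dlk1* turned to 0.0023 there and to 0.065 without lane as a term, and that of *Meg3* to 0.033. The *Meg3* effect of genotype with B6 mothers turned to 6.01e-05 with total-count scaling, 0.022 with somite number added and 0.019 without lane J, and the *Rtl1* difference between mothers to 0.10 with litter in place of lane. Without lane as a term 5 pairs correlated in place of 3, *Dlk1* and *Meg3* with rho -0.11 and *Dlk1* and *Mirg* with rho 0.37, and the last had 0.059 with litter in place of lane. Except for the litter means, the cause was not tested. No paired analysis was possible because embryo numbers are counted within litters of different mothers and pair nothing. Depth limited *Rian* (no read in 46 of 154 N2 embryos) and the votes of *Rtl1* and *Dio3*.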
